A study of Mus musculus with 6 samples.

Results

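The laminin and basement membrane genes described here are the laminin alpha chains Lama1, Lama3 and Lama5, the beta chains Lamb1 and Lamb2, the gamma chain Lamc1, the collagen IV chains Col4a1 and Col4a2, nidogen, Nid1, and perlecan, Hspg2. These 10 genes are part of 18193 genes with a probe set of a single symbol, and each, out of 21 probe sets in all, was represented by its probe set with the highest mean over the 6 arrays. They were chosen by name around an earlier result on the same arrays, the higher level of Lama3 and the lower level of Col4a1 in haploid cells. The values of those 2 genes are therefore a description with no test, and the 8 partner genes were read from a fit across all genes. The genes were measured in mouse embryonic stem (ES) cells, pluripotent cells taken from the early embryo, on 1 Affymetrix array per culture. The 3 diploid arrays came from male ES cells of 129Sv (replicates 1 and 2) or 129 background (replicate 3). The 3 haploid arrays came from the line HAP1 at passage 24 and the line HAP2 at passage 21, both of F1 CBAxB6 background, and from the line HTG1 at passage 11, labelled mixed transgenic with no transgene named. All 6 cultures were kept in 2i medium, a medium with kinase inhibitors that favours the undifferentiated state, and RNA was taken on day 2 after passaging. The share of haploid cells at harvest was not given in the labels. Each haploid replicate is 1 line, and the diploid titles do not say whether their cultures were separate lines. No passage was given for the diploid cultures. Strain and ploidy cannot be told apart in this design, nor can sex or passage where they differ between the groups. The p-values measure the spread between these arrays.

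A basement membrane is a sheet of matrix on which epithelial cells sit. Its laminin network is built from trimers of 1 alpha, 1 beta and 1 gamma chain, which join inside the cell, and the alpha chain carries most of the binding sites for receptors such as integrins and dystroglycan. Collagen IV forms a separate network from trimers in which the Col4a1 and Col4a2 chains combine, and nidogen and perlecan link the networks. In the early mouse embryo the extraembryonic endoderm is a rich source of these proteins, and ES cells make and attach to laminin in culture.

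Values are log2 expression values made by the submitters with RMA, and a difference is the haploid mean minus the diploid mean on that scale. The array medians lay between 6.31 and 6.33, and a probe set is called dim here under 4.80, the smallest lower quartile among the 6 arrays. The ES cell markers were high on all arrays, from 11.97 to 15.12 over 8 genes. They moved too, with 3 of 8 higher in haploid arrays and 0 lower by the fit across all genes. These were Klf4 by 0.68, Nanog by 0.47 and Pou5f1 by 0.40, while 5 did not pass. In that fit 14.9% of all genes passed a limma adjusted p of 0.05, 7.92% higher and 6.96% lower. Klf4 passed with any array left out, and Nanog lost its call when replicate 2 or 3 of either group was left out (limma adjusted p = 0.0522 to 0.0906). Among the omissions Pou5f1 passed only without diploid replicate 1 (0.0503 to 0.0874 in the others). Quantile normalization also ended its call, as did subtracting the median difference of its chromosome's genes above the median level (limma adjusted p up to 0.0543). Among 16 markers of primitive endoderm, 1 rose (Amn, 0.88), 2 fell (Lrp2, -1.26, and Hnf4a, -0.47) and 13 did not pass, and the mean level of the list ran from 5.87 to 5.98 in diploid and from 5.84 to 5.94 in haploid arrays. Amn and Lrp2 passed under each omission, and Hnf4a only without haploid replicate 3 (limma adjusted p = 0.0549 to 0.121 in the others). The call of Hnf4a was also lost when probe sets marked as shared between transcripts were dropped (-0.25, limma adjusted p = 0.25). The endoderm factors Gata4 (5.94 to 6.28) and Gata6 (5.74 to 6.17) stood below the array medians in both groups, and Sox17 (6.25 to 6.82) ran across them. On each array these factors lay between percentiles 26.9 and 42.1 of the genes tested.

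The pair Col4a1 and Col4a2 is shown first by sequence, because the RefSeq start regions of these chains overlap head to head on chromosome 8. The windows, in build GRCm38.p6, run from 250 bases before to 50 bases after each start, 5′ to 3′ on the gene's own strand. The capitals mark the 78 bases that both windows cover, from 11312777 to 11312854.
Col4a1, chr8:11312777-11313076, minus strand: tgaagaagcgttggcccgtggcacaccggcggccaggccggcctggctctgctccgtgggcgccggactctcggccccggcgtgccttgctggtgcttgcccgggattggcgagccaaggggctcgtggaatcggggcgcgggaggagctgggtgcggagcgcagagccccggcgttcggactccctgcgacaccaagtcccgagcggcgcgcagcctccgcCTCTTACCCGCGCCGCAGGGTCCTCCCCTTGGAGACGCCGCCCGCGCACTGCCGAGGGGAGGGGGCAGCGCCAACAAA
Col4a2, chr8:11312555-11312854, plus strand: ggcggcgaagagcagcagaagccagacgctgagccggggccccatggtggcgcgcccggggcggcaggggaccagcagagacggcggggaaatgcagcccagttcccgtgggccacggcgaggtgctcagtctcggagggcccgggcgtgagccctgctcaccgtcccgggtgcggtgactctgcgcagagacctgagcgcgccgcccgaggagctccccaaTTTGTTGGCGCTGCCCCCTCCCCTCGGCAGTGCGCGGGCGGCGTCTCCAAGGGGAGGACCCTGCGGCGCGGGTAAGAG
The annotated starts lie so that the first 22 transcribed bases of each gene are complementary, and 74.0% and 73.7% of the letters of the Col4a1 and Col4a2 windows are G or C. The motif CCAAT, searched on both strands, occurred 1 time in each window, never wholly within the capitals (in Col4a2 its last base is the first capital), and it occurs in 37.4% of all 32851 promoter windows of the same length. The motif GGGCGG, also searched on both strands, occurred 1 time in the Col4a1 window and 3 times in the Col4a2 window, with 1 occurrence shared, against 35.7% of all windows with at least 1. RefSeq windows were at hand for 7 of the 10 genes, and 5 of these are not printed here.

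The alpha chains of laminin moved in opposite directions. Lama3, the alpha chain of epithelial laminins, was 8.57-fold higher and Lama1, the alpha chain of the embryonic laminin trimer, 1.96-fold lower in haploid arrays, and Lama5, a broadly used alpha chain, was 1.88-fold higher. Across all 18193 genes 14.9% (1441 higher and 1266 lower) passed a limma adjusted p of 0.05 (7.92% higher and 6.96% lower), and of the 8 partner genes 1 rose, 1 fell and 6 did not pass. The haploid and diploid values did not overlap for 4 of the 8 partners, 1 higher and 3 lower, against 37.9% of all genes (17.7% higher and 20.2% lower). With array medians aligned, 1225 of all genes were higher and 1680 lower. The median difference was -0.10 over the 8 partners and -0.03 over all genes.

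Lama1 stood at 9.43, 9.39 and 9.33 in diploid replicates 1 to 3 and at 8.94, 8.38 and 7.92 in haploid replicates 1 to 3. Every haploid value lay under every diploid one, and the haploid arrays were spread more widely (SD 0.51 against 0.05, n = 3 each). The difference was -0.97 ± 0.24 (SE, limma adjusted p = 0.0362). The call was lost on leaving out diploid replicate 1, 2 or 3 (limma adjusted p = 0.0842, 0.105 and 0.107) or haploid replicate 2 (0.0988). Lama1 had 1 probe set, so no second measurement was at hand.

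Lama5 stood at 8.94, 9.60 and 9.39 in the diploid and at 10.19, 10.50 and 9.99 in the haploid arrays. The groups did not overlap, and diploid replicate 1 was the lowest array. The difference was 0.91 ± 0.20 (SE, n = 3 per group, limma adjusted p = 0.0276), and the call was lost without diploid replicate 3 (0.0862) or haploid replicate 1 (0.0544) or 2 (0.0802). A second probe set gave 0.79 (adjusted p over all probe sets = 0.0647), and the dimmest, between 5.02 and 5.93 on the 6 arrays, gave -0.45 (0.117). The mean of the 3 probe sets differed by 0.41 and did not pass (limma adjusted p = 0.18).

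Lama3 stood at 7.08, 6.91 and 6.95 in the diploid and at 9.59, 10.20 and 10.44 in the haploid arrays. This was the widest gap of the 10 genes, 3.10 ± 0.21 (SE, n = 3 per group) on the log2 scale, and every haploid array was above every diploid one. The difference stayed between 2.92 and 3.34 with any 1 array left out. The other probe set of Lama3 ran from 5.35 to 5.66 and differed by -0.06, so the mean of the probe sets differed by 1.52. Only 1 of the 2 probe sets of Lama3 was higher in haploid arrays.

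**Figure D1:**
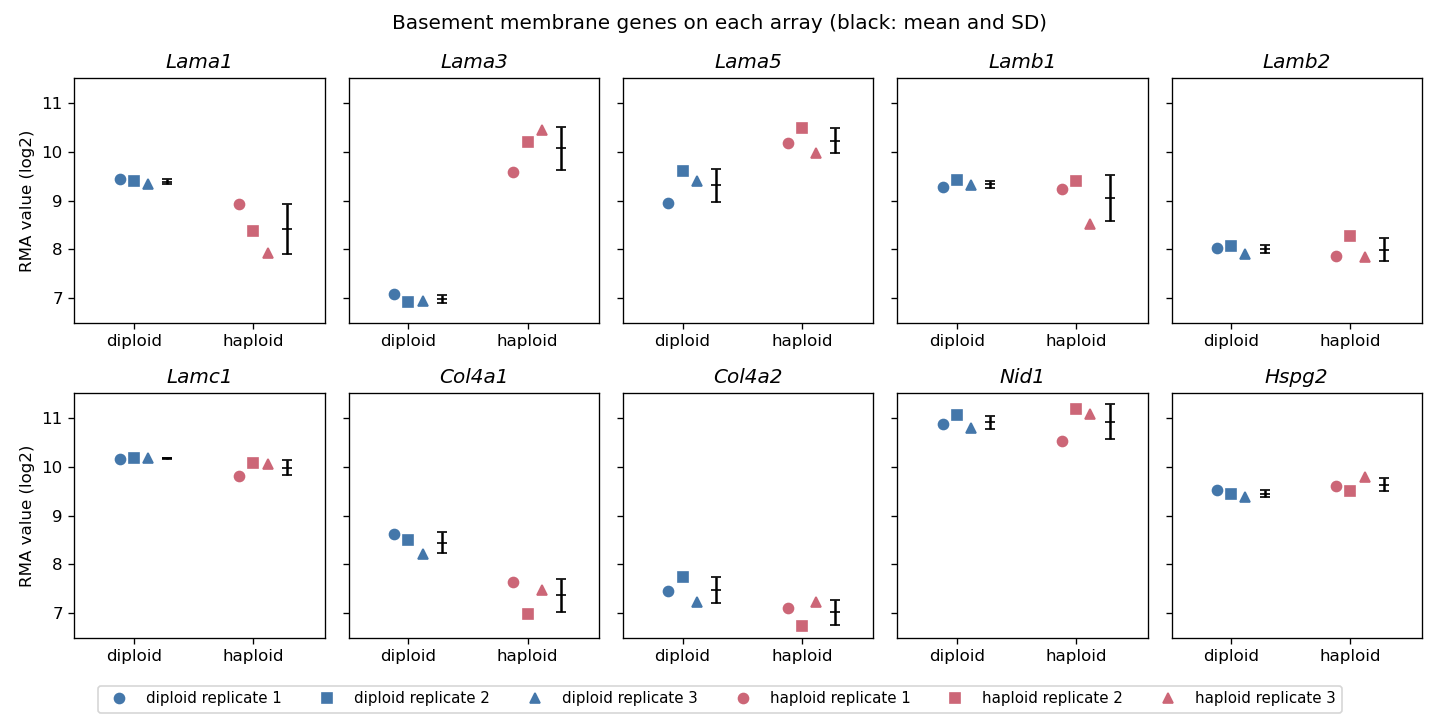
RMA values (log2, y axis) of the 10 genes in diploid (blue) and haploid (red) arrays, with 1 point per array and the mean and SD in black. Lama3 and Lama5 lie higher and Lama1 and Col4a1 lower in all 3 haploid arrays, while the groups overlap for Lamb1, Lamb2, Nid1 and Hspg2.

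Chains were also set against each other on each array after centring each gene over the 6 arrays, with the brightest probe set of each gene. Lamc1 gave -0.19 by that probe set, while its other one fell by 1.01, close to the fall of Lama1 (-0.97). The pairs with Lamc1 are therefore read for its brighter probe set only. Lama5 minus Lama1 ran from -1.36 to -0.66 in diploid and from 0.38 to 1.25 in haploid arrays, a difference of 1.88. This follows from the opposite moves of these genes, so its permutation p is not read as a further test. Lama1 minus Lamb1 (-0.69) and Lama1 minus Lamc1 (-0.78) both include the fall of Lama1. Each had a two-sided exact permutation p of 0.1, the least that 3 arrays against 3 can reach (0.167 adjusted over 5 chain pairs, Lama5 minus Lama1 counted among them). Each separated the groups, the second narrowly, with 0.32 in diploid replicate 3 against 0.31 in haploid replicate 1. Lamb1 minus Lamb2 (-0.27, p = 0.3, exact permutation, 0.375 adjusted) and Lamb1 minus Lamc1 (-0.09, p = 1, exact permutation, 1 adjusted) did not separate them.

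The beta and gamma chains, with which alpha chains pair, gave no call with their brightest probe sets. Lamb1, the beta chain of the embryonic trimer, stood at 9.27, 9.41 and 9.31 in the diploid and at 9.24, 9.40 and 8.51 in the haploid arrays. Haploid replicate 3 was the low array and the other haploid values overlapped the diploid ones, with a difference of -0.28 (95% interval -0.81 to 0.25, limma adjusted p = 0.436). The other Lamb1 probe sets gave -0.51, -0.06 and, for a dim one, 0.02 (limma adjusted p over all probe sets = 0.258, 0.894 and 0.901). Lamb2, the beta chain of muscle and kidney laminins, ran from 7.90 to 8.08 in the diploid and from 7.84 to 8.27 in the haploid arrays, with a difference of -0.01 (95% interval -0.34 to 0.32, limma adjusted p = 0.97). A p that misses the threshold does not show that these chains were equal.

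Lamc1, the gamma chain shared by most laminins, depended on the probe set. The brighter one stood at 10.17, 10.17 and 10.19 in the diploid and at 9.81, 10.07 and 10.07 in the haploid arrays, a difference of -0.19 (95% interval -0.44 to 0.05, limma adjusted p = 0.252). The other stood at 8.76, 8.67 and 8.48 in the diploid and at 7.60, 7.76 and 7.52 in the haploid arrays and fell by 1.01 ± 0.12 (SE, n = 3 per group, limma adjusted p over 34945 probe sets = 0.00402), where 13.4% of all probe sets passed. All haploid arrays were below all diploid arrays by both probe sets, and the mean of both fell by 0.60 (limma adjusted p = 0.00824). Among the array's controls for actin, the excess of the 3' over the 5' end, a sign of RNA integrity, ran from 0.34 to 0.46 in the diploid and from 0.18 to 0.24 in the haploid arrays, and its part in this disagreement was not tested.

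**Figure D2:**
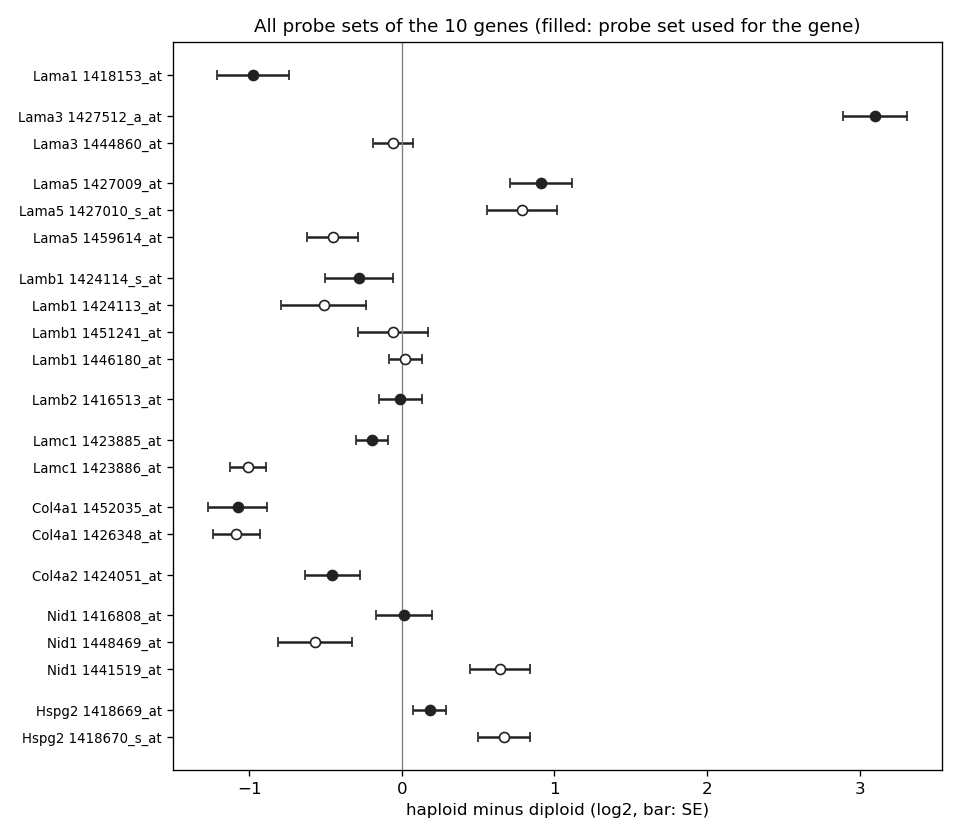
Haploid minus diploid difference (log2, x axis, bars SE) of each probe set of the 10 genes, with the probe set used for the gene filled. Both probe sets of Col4a1 lie at -1.08, while those of Lama3, Lama5, Lamb1, Lamc1, Nid1 and Hspg2 differ from each other.

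Col4a1, the more abundant chain of the common collagen IV trimer, stood at 8.63, 8.49 and 8.20 in the diploid and at 7.64, 6.99 and 7.47 in the haploid arrays. All haploid arrays lay lower, with a difference of -1.08 ± 0.19 (SE, n = 3 per group) or 2.11-fold, and the second probe set gave -1.08 as well. Col4a2, its partner chain, stood at 7.45, 7.74 and 7.22 in the diploid and at 7.11, 6.72 and 7.21 in the haploid arrays. The groups of Col4a2 did not overlap, but diploid replicate 3 and haploid replicate 3 were nearly equal, and the difference was -0.45 ± 0.18 (SE, n = 3 per group, 95% interval -0.88 to -0.03, limma adjusted p = 0.137). After centring, Col4a1 minus Col4a2 ran from 0.09 to 0.52 in diploid and from -0.41 to -0.13 in haploid arrays, so Col4a1 was lower by 0.62 more than its partner. Col4a1 was chosen for its fall, and this gap has no test.

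Genes of chromosome 8, which carries both collagen chains, were lower in haploid arrays as a group. The median difference of its 932 genes was -0.20, and -0.32 over the 505 above the median level. With the first value subtracted, Col4a1 differed by -0.88 and Col4a2 by -0.26 (limma adjusted p = 0.377). With the second, an alternative chosen after seeing the data, they differed by -0.76 and -0.14 (limma adjusted p = 0.616).

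Markers of fibroblasts, which make collagen IV and could be present as feeder cells or differentiated cells, were looked at beside the collagen chains. Of 15 measured markers 3 fell, 0 rose and 12 did not pass, where 6.96% of all genes fell and 7.92% rose. The haploid and diploid values did not overlap for 8 lower and 0 higher markers, against 20.2% and 17.7% of all genes. The median difference was -0.54, against -0.03 over all genes. Col1a2, a chain of fibrillar collagen, fell by 2.62, Vim, the intermediate filament vimentin, by 1.25, and Col5a1, another fibrillar collagen chain, by 1.16. Col1a2 and Col5a1 passed with any array left out, and Vim lost its call on leaving out any diploid array or haploid replicate 3 (limma adjusted p = 0.0507 to 0.0993). The mean level of the list was 7.21, 6.60 and 6.62 in the diploid and 6.13, 5.98 and 6.14 in the haploid arrays, so diploid replicate 1 was the highest. The fibroblast markers Col3a1 and Lum were under 4.80 in all haploid arrays, and 0 of the 15 markers were under it in all diploid arrays. In such bulk samples fewer cells of a type and less RNA per cell cannot be told apart. The part of these markers in the fall of Col4a1 was not tested; without diploid replicate 1 Col4a1 differed by -0.98 and Col4a2 by -0.47.

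**Figure D3:**
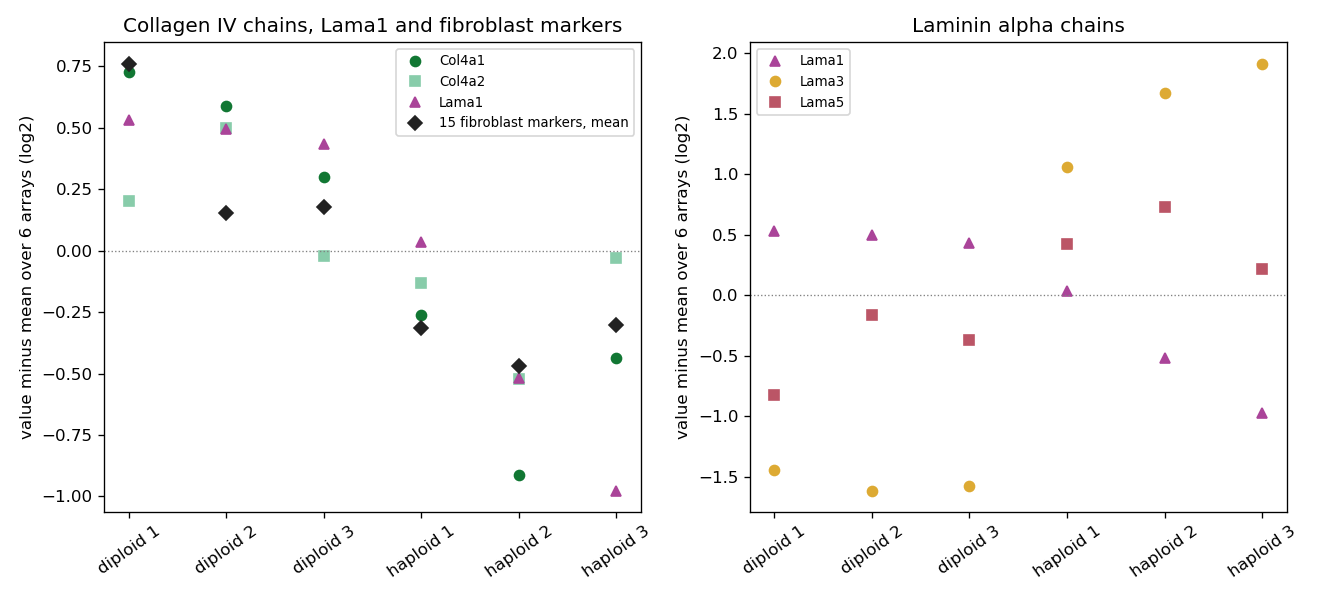
Values centred on each gene's mean over the 6 arrays (log2, y axis) by array (x axis), on the left for Col4a1, Col4a2, Lama1 and the mean of 15 fibroblast markers, on the right for the laminin alpha chains. Every haploid point of Col4a1 and of the fibroblast mean lies under every diploid point, and Lama1 runs opposite to Lama3 and Lama5.

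The linkers of the networks gave no call with their brightest probe sets. Nid1, which joins laminin to collagen IV, stood at 10.89, 11.06 and 10.79 in the diploid and at 10.52, 11.18 and 11.08 in the haploid arrays. The groups overlapped, with a difference of 0.01 (95% interval -0.42 to 0.45, limma adjusted p = 0.966), and the other probe sets gave -0.57 and 0.64, the last from a dim probe set at 3.44 to 4.58. Hspg2, the heparan sulphate proteoglycan perlecan, stood at 9.52, 9.45 and 9.39 in the diploid and at 9.61, 9.50 and 9.78 in the haploid arrays. The difference was 0.18 (95% interval -0.06 to 0.43, limma adjusted p = 0.28). Its other probe set rose by 0.67 ± 0.17 (SE, n = 3 per group, adjusted p over all probe sets = 0.0433), so the probe sets of Hspg2 share a direction but not a call.

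HTG1 gave no call against the other haploid lines in the 10 genes, which does not show that the lines were equal, and HAP1 was not tested against HAP2. HTG1 was set against HAP1 and HAP2 in a fit that assumes the single HTG1 array to vary like the others, and limma adjusted p ran from 0.143 to 0.971 over the 10 genes. In that contrast 0.374% of all genes passed, and 2 of the 10 genes had an unadjusted p under 0.05. These were Lamb1, lower in HTG1 by 0.81 ± 0.15 (SE, limma adjusted p = 0.143), and Lama1, lower by 0.74 ± 0.23 (limma adjusted p = 0.407). The other Lamb1 probe sets gave -0.93, -0.75 and, for a dim one, -0.05.

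Of 24 further basement membrane genes measured, 3 rose, 1 fell and 20 did not pass, a share near the 14.9% of all genes, with a median difference of -0.01. Col18a1, the collagen XVIII core protein that releases endostatin, rose from 9.23, 9.52 and 9.32 to 10.77, 10.61 and 10.93 (1.41 ± 0.12, SE, n = 3 per group, limma adjusted p = 0.00194), with no overlap of the groups and with a call under every omission of 1 array. Fbln1, the matrix protein fibulin, rose by 1.06 and did not pass without diploid replicate 3 (limma adjusted p = 0.0565). Tinagl1, a laminin-associated matrix protein, rose by 0.70, a call lost on leaving out any diploid array or haploid replicate 3 (0.0547 to 0.103). Lamb3, the beta chain that pairs with the Lama3 chain in skin laminin, went the other way. It stood at 6.01, 5.97 and 6.20 in the diploid and at 5.62, 5.44 and 5.48 in the haploid arrays and fell by 0.55 (limma adjusted p = 0.0183), a call lost on leaving out diploid replicate 3 or haploid replicate 2 (0.0637 to 0.0712). The alpha chains Lama2 and Lama4 differed by -0.02 and -0.34 (limma adjusted p = 0.925 and 0.168), and the linker Nid2 by 0.26 (0.225).

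Of 19 measured receptors of laminin and collagen 2 rose, 0 fell and 17 did not pass, also near the 14.9% of all genes, with a median difference of 0.12. Itgb4, the integrin chain of hemidesmosomes that binds laminins with the Itga6 chain, rose from 7.29, 7.35 and 7.57 to 7.92, 8.07 and 8.12 (0.63, limma adjusted p = 0.0142), and did not pass without diploid replicate 2 (0.0506) or haploid replicate 2 (0.058). Itgb5, a chain of integrins for vitronectin, rose by 0.96 and among the omissions passed only without haploid replicate 1 (0.0566 to 0.0998 in the others). Itga6 (-0.06), Itgb1 (-0.36) and dystroglycan, Dag1 (-0.27), gave no call (limma adjusted p = 0.811, 0.152 and 0.135). Of 8 measured genes for the sugar chain of dystroglycan that binds laminin, Rxylt1 rose (0.43), Pomk fell (-0.74) and 6 did not pass. The same omissions, replicate 2 or 3 of either group, ended the call of Rxylt1 (limma adjusted p = 0.0553 to 0.0813), and Pomk, on chromosome 8, passed under every omission.

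**Figure D4:**
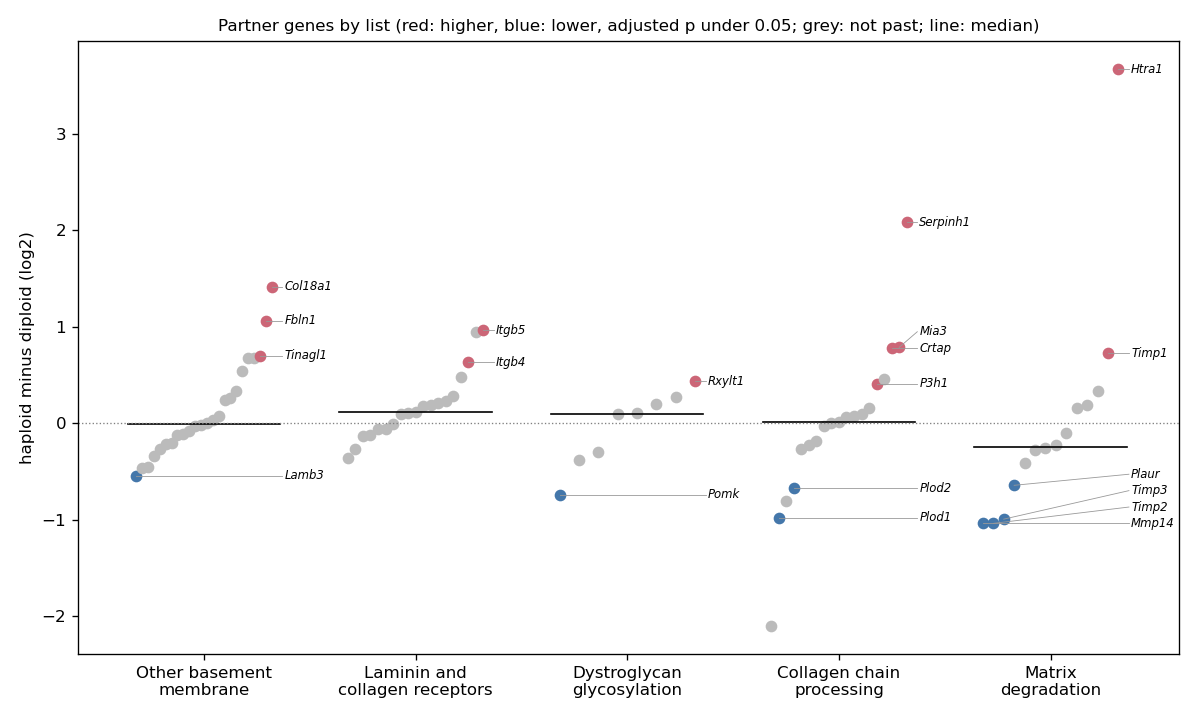
Haploid minus diploid difference (log2, y axis) of each gene in 5 lists (x axis), red for higher and blue for lower at a limma adjusted p of 0.05, grey for no call, with the list median as a line. Htra1, Serpinh1 and Col18a1 stand highest among the called genes.

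Genes that fold and modify collagen chains had members on either side. Among the 19 measured, 4 rose, 2 fell and 13 did not pass, where 14.9% of all genes passed. The median difference was 0.01. Serpinh1, the collagen chaperone of the endoplasmic reticulum, stood at 8.63, 8.79 and 8.23 in the diploid and at 10.50, 10.54 and 10.85 in the haploid arrays. The groups were far apart, and the rise of 2.08 ± 0.17 (SE, n = 3 per group, 4.23-fold, limma adjusted p = 0.00164) passed under every omission. Mia3, which loads collagen into transport vesicles, rose by 0.79 and passed under every omission, but the call was lost when probe sets marked as shared between transcripts were dropped (0.36, limma adjusted p = 0.119). Crtap, a partner of collagen prolyl hydroxylation, rose by 0.78, and among the omissions it passed only without haploid replicate 1 (0.0841 to 0.113 in the others). Its call was also lost when the median difference of its chromosome's genes above the median level was subtracted (limma adjusted p = 0.0564). The lysyl hydroxylase Plod1 fell by 0.98, a call lost on leaving out any diploid array or haploid replicate 2 (0.0577 to 0.0913). Serpinh1 was higher in the 3 arrays in which Col4a1 was lower.

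Of 14 measured genes of matrix degradation 2 rose, 4 fell and 8 did not pass, where 14.9% of all genes passed. The median difference was -0.24, against -0.03 over all genes. The secreted protease Htra1 rose by 3.67. The inhibitors of matrix proteases Timp2 and Timp3 fell by 1.04 and 0.995, while Timp1 of the same family rose by 0.73 (limma adjusted p = 0.0485). Timp1 lies on chromosome X, whose 617 genes had a median difference of 0.37, and of 0.77 over the 297 above the median level. The part of that shift in the rise of Timp1 was not tested. The membrane protease Mmp14, which cleaves collagen, fell by 1.04. Htra1 and Timp2 passed under every omission, although Timp2 did not with the mean of its probe sets (limma adjusted p = 0.0919). Timp3 lost its call without diploid replicate 3, haploid replicate 2 or haploid replicate 3 (0.0501 to 0.0671), and Mmp14 kept its own only without haploid replicate 3 (0.0653 to 0.0945 in the others).

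Other cell types that make basement membrane were looked for by their markers. Of 11 measured trophoblast markers 2 fell, where 6.96% of all genes fell, 0 rose and 9 did not pass. These were the keratins Krt8 (-2.21), which passed under each omission, and Krt18 (-1.23), which passed only without haploid replicate 1 (limma adjusted p = 0.0539 to 0.112 in the others). Cdx2 (6.09 to 6.41) and Elf5 (4.93 to 5.44), factors that define the lineage, stood near or below the array medians on all 6 arrays. The mean level of that list ran from 7.55 to 7.87 in the diploid and from 7.24 to 7.71 in the haploid arrays. Of 6 endothelial markers Pecam1, which ES cells also express, fell by 0.90 and 5 did not pass, with list means from 6.24 to 6.54 and from 6.21 to 6.42. The part of these lists in the differences of the laminin and collagen genes was not tested.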

How the data were processed

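Per the labels, RNA of 3 haploid and 3 diploid mouse ES cell cultures was hybridised to 1 Affymetrix array each. The deposited table holds log2 values per probe set. Per the submitters' processing notes they come from RMA, with version and settings not given in the sources used here. RMA normalizes across arrays, so each difference is relative to the bulk of genes.

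Of 45101 probe sets, 64 controls were left out. GEO's platform annotation gave 34945 probe sets 1 symbol, 932 several and 9160 none. The brightest single-symbol probe set stood for each of 18193 genes. Chromosomes and promoter sequences came from RefSeq (GRCm38.p6). A linear model per gene was fitted in limma 3.58.1 (R 4.3.3) with lmFit and eBayes on all genes, unfiltered, and p-values were adjusted by Benjamini-Hochberg, with 0.05 as the threshold. HTG1 was tested in a fit with 3 groups (diploid, F1 haploid and HTG1). SE is moderated. The test was run on simulated arrays of the haploid and diploid groups, in which 200 of the 18193 genes were shifted. It found 88% of the log2 shifts of size 1 and 99% of those of size 2. Of its calls 8.33% were false, more than the threshold of 0.05 aims at. In the data 2707 genes passed, far more than the 200 shifted here, so these rates need not hold for the data.

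The members and lists were chosen with earlier results of these data known. From each list the text names up to 4 genes past the threshold with the largest change, or the 2 brightest where none passed. Lama2, Lama4, Nid2, Itga6, Itgb1, Dag1, Gata4, Gata6, Sox17, Col3a1, Lum, Timp1, Cdx2 and Elf5 are named outside this rule, chosen after their values were seen. The alternatives were quantile normalization, aligned medians, a filter on dim genes, other choices of probe set, trend and robust settings, array weights, subtraction of chromosome shifts, and omission of each array.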

Additional observations from a re-analysis of the deposited data

How the results depend on the processing

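The partner genes past the threshold, 1 higher (Lama5) and 1 lower (Lama1), kept these counts in 8 of 9 alternatives that kept all arrays. In the other, averaging the probe sets of each gene, 0 were higher and 2 lower. With 1 array left out the counts ran from 0 to 1 higher and from 0 to 1 lower. Over the 140 genes measured in the 10 further lists, 16 were higher and 16 lower. The fit of genes above the median level held only 61 of them, of which 15 were higher and 9 lower. With 1 array left out 7 to 15 were higher and 8 to 15 lower. Over all genes, 1441 were higher and 1266 lower; without diploid replicate 2 these were 678 and 518, without diploid replicate 3 571 and 399, and without haploid replicate 2 806 and 623. Among the 10 genes, HTG1 gave no call against HAP1 and HAP2 under any of the 9 alternatives tried. Lama3 (1.52 to 3.34) and Col4a1 (-1.21 to -0.76) kept their direction in all 15 alternatives that gave 1 value per gene.

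Differences near 0 changed sign. Nid1 gave -0.0178 after quantile normalization, -0.0463 with medians aligned, -0.0033 with the chromosome shift of genes above the median level subtracted, and from -0.11 to 0.215 over the omissions of 1 array, below 0 without diploid replicate 3, haploid replicate 2 or haploid replicate 3. Lamb2 gave 0.067 with array weights, 5.7e-05 with chromosome shifts over all genes subtracted, and from -0.149 to 0.0654 over the omissions, above 0 in 4 of them. Single probe sets gave -0.0572 for Lama3, -0.45 for Lama5, 0.0243 for Lamb1 and -0.57 for Nid1. For HTG1, Lamc1 gave -0.0166 with averaged probe sets, and over the omissions Lamc1 ran from -0.0030 to 0.257, Nid1 from -0.10 to 0.553 and Col4a1 from -0.17 to 0.478. The cause was not tested. No paired analysis was possible because the haploid titles carry no replicate numbers. The small number of arrays, 3 per group, limits the precision.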
